A study of Homo sapiens with 9 samples.

Results

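Treatment with 2-APB was compared with control in 6 RNA-seq libraries of 9 in the series. The members are the 3 libraries whose treatment label reads 2-APB and the 3 control libraries, whose treatment label is empty, and they were chosen by that label. All came from cells labelled HepG2, a hepatocellular line, and the labels name no dose, time, vehicle, batch or day. Nothing in the labels ties the libraries to separate cultures, so p-values measure only the spread between these libraries. Sample titles of the 2-APB libraries carry the letters ABP, and their value columns carry the channel name TRPV2, so the group rests on the treatment label alone. The other 3 libraries, from cells given SKF-96365, entered the fit through the estimate of the spread of each gene, and their values stand beside a few genes. Values are DESeq2-normalized counts, that is, gene counts divided by 1 size factor per library. Of 61093 listed genes, 17492 were tested, those that reached 10 normalized counts in 3 or more of the 9 libraries.

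2-APB (aminoethoxydiphenyl borate) is a membrane-permeable compound that blocks inositol trisphosphate (IP3) receptors and store-operated calcium entry, and at higher concentrations opens several heat-sensitive TRPV channels. Store-operated entry links STIM proteins, which sense calcium in the endoplasmic reticulum, to ORAI channels in the plasma membrane. TRPV2 is a calcium-permeable cation channel of the same superfamily as TRPM7, and of these it is TRPM7 that 2-APB blocks. Rises in cytosolic calcium drive immediate early genes through CREB, MAP kinase and calcineurin-NFAT signalling. The series design text calls 2-APB an agonist, and the comparison asks what it does to transcript levels.

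Depth was 14786059 to 19008238 reads in the 6 libraries, and 6.90% to 8.04% of the normalized counts fell on mitochondrial genes. Libraries of a group were unequally close. 2-APB 1 and 2-APB 2 differed by little more than counting error, with a chi-square per degree of freedom of 2.15, where counting error alone gives a value near 1. 2-APB 3 stood at 21.6 and 25.1 from these libraries, at 8.41 from control 1 and at 7.44 from SKF-96365 1. Control 3 stood at 60.1 from control 1 and 62.1 from control 2, and at 3.92 from SKF-96365 2. The controls were therefore the more scattered group. Values without control 3 or 2-APB 3 are given beside some, not all, of the results that they move. Whether close libraries share a culture was not tested.

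No single gene separated 2-APB from control in limma's test with Benjamini-Hochberg adjustment. The calls were 0 of 17492 genes (0%), and the smallest adjusted p was 0.9995. At an unadjusted p under 0.05 limma had 489 genes (2.8%), 239 higher and 250 lower with 2-APB. A uniform p would give a share of 0.05, more than was seen. On the recovered reads of the 6 libraries, edgeR and DESeq2 also called 0 genes, with 378 and 340 at an unadjusted p under 0.05. Log2 fold changes were centred near 0, with 49.7% of genes above 0 and 50.3% below. For 12328 genes (70.5%) the 95% interval of the log2 fold change lay between -1 and 1, and among the 12340 genes with a mean of at least 50 the share was 91.2%. A difference of 1 log2 unit or more is outside the interval for those genes. The median half-width of 0.51 log2 units is unadjusted. At the same SE a call over 17492 genes needs a larger difference, so differences above 0.51 can also go uncalled. Without control 3, 1662 of 17492 genes were at an unadjusted p under 0.05 in limma, with 0 called and smallest adjusted p of 0.376. Without both control 3 and 2-APB 3 there were 2183, with 0 called and smallest adjusted p of 0.0761. These libraries stood farthest from their groups in the same data, so leaving them out keeps the closer ones. The counts therefore do not measure an effect of 2-APB.

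In 1325 genes (7.57%) the 3 values with 2-APB did not overlap the 3 control values. Of these, 631 lay higher (3.61%) and 694 lower (3.97%) with 2-APB. Random labels on the 6 libraries, which split 3 against 3 in 20 ways, would give a share of 0.1 in either direction, more than was seen. Most separations were small: among those with a mean of at least 50, the median log2 difference was 0.29 for the 360 higher and 0.25 for the 503 lower genes, and 5 and 4 of them reached 1. Protein-coding genes made up 424 of the 631 and 517 of the 694.

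**Figure D1:**
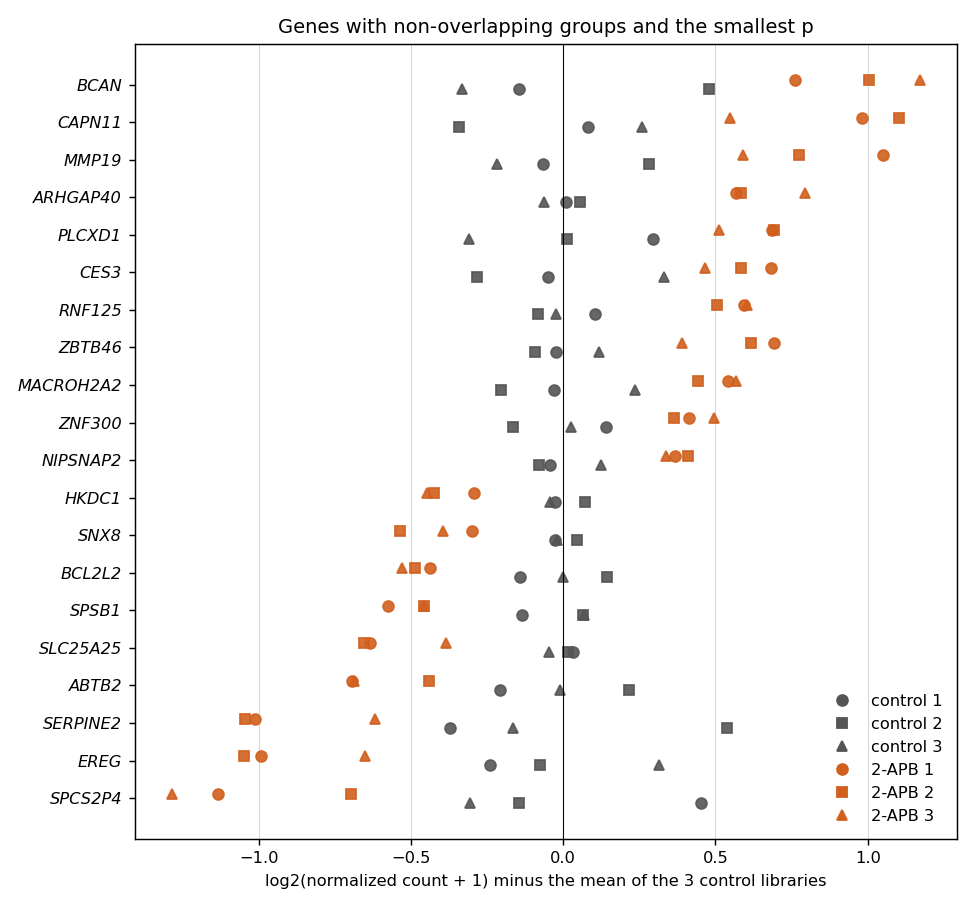
Each row is a gene and each point a library, placed by its log2(normalized count + 1) minus the mean of the 3 control libraries. Grey points are controls, orange points are 2-APB, and the shape gives the library number. The rule picked genes with groups apart, so the 11 upper genes have all orange points to the right of the grey ones. The 9 lower genes have them to the left, and control 2 is the control farthest from the others in SERPINE2.

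Among genes that lay higher with 2-APB in every library, the 12 with the smallest p included 11 with a symbol. The adjusted p from limma was at least 0.9995 for these and for every other gene described, so the sizes below are given with their SE and no call. CAPN11, a calcium-dependent protease of the calpain family, stood at 208, 155 and 236 in control 1 to 3 and at 389, 423 and 288 in 2-APB 1 to 3 (log2 fold change 0.88, SE 0.21). The 3 SKF-96365 libraries held 190 to 266 for CAPN11. BCAN, which encodes the extracellular proteoglycan brevican, stood at 35.8, 55.8 and 31.3 in control and 68.0, 80.7 and 90.7 with 2-APB (0.98, SE 0.26). The matrix metalloproteinase gene MMP19 was at 77.9, 99.4 and 69.9 against 170, 140 and 123 (0.80, SE 0.23). Both of these are genes of the extracellular matrix and its turnover, and both sat at low levels.

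PLCXD1, which carries a phospholipase C domain, was at 1400, 1149 and 919 in control and 1832, 1842 and 1626 with 2-APB (log2 fold change 0.63, SE 0.18). Control 1 was the highest control for PLCXD1. CES3, a carboxylesterase gene, RNF125, a ubiquitin ligase gene, ZBTB46 and ZNF300, both zinc finger genes, MACROH2A2, a histone variant gene, and NIPSNAP2, a mitochondrial protein gene, had log2 fold changes of 0.58, 0.57, 0.57, 0.42, 0.52 and 0.37. In RNF125, ZBTB46 and NIPSNAP2 the SKF-96365 libraries also lay above every control, at 111 to 135, 130 to 163 and 814 to 895. In PLCXD1, CES3, ZNF300 and MACROH2A2 they lay inside the control range. With each library left out in turn, the 12 genes ran from 0.33 to 1.22.

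On the lower side, EREG had the smallest p among genes with a symbol. It encodes epiregulin, a secreted ligand of the EGF receptor. It stood at 1936, 2172 and 2849 in control and at 1150, 1107 and 1458 with 2-APB (log2 fold change -0.90, SE 0.20, 95% interval -1.34 to -0.45). The SKF-96365 libraries held 2208 to 3420, so the 2-APB libraries were the 3 lowest of the 9. Leaving out single libraries moved EREG between -1.02 and -0.74. SERPINE2, a secreted inhibitor of serine proteases, was at 7685, 14438 and 8875 in control and 4931, 4818 and 6484 with 2-APB (-0.89, SE 0.23). Control 2 was its highest library, and without control 2 the log2 fold change was -0.62.

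SLC25A25, a calcium-regulated carrier of the inner mitochondrial membrane that exchanges ATP-Mg for phosphate, was at 249, 246 and 236 in control and 157, 155 and 186 with 2-APB (log2 fold change -0.56, SE 0.14). Its control values differed by little, and the SKF-96365 libraries held 235 to 265, within or near the control range. BCL2L2, an anti-apoptotic member of the BCL2 family, was at 687, 838 and 759 against 560, 541 and 526 (-0.48, SE 0.11). SPSB1, an adaptor of a ubiquitin ligase, was at 236, 271 and 271 against 173, 188 and 188 (-0.50, SE 0.14). By the rule that picked these genes, the lowest control of each lay above its highest 2-APB library. ABTB2, the sorting nexin gene SNX8 and the hexokinase-like gene HKDC1 had log2 fold changes of -0.61, -0.41 and -0.39. SPCS2P4, a pseudogene of a signal peptidase subunit whose reads can be shared with its parent gene, was at 259, 170 and 152 in control and 85.5, 116 and 76.9 with 2-APB (-1.04, SE 0.25). It was lower still, at 52.6 to 67.3, in the SKF-96365 libraries. The other 3 of these 12 genes on the lower side and 1 of the 12 on the higher side are loci without a symbol.

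**Figure D2:**
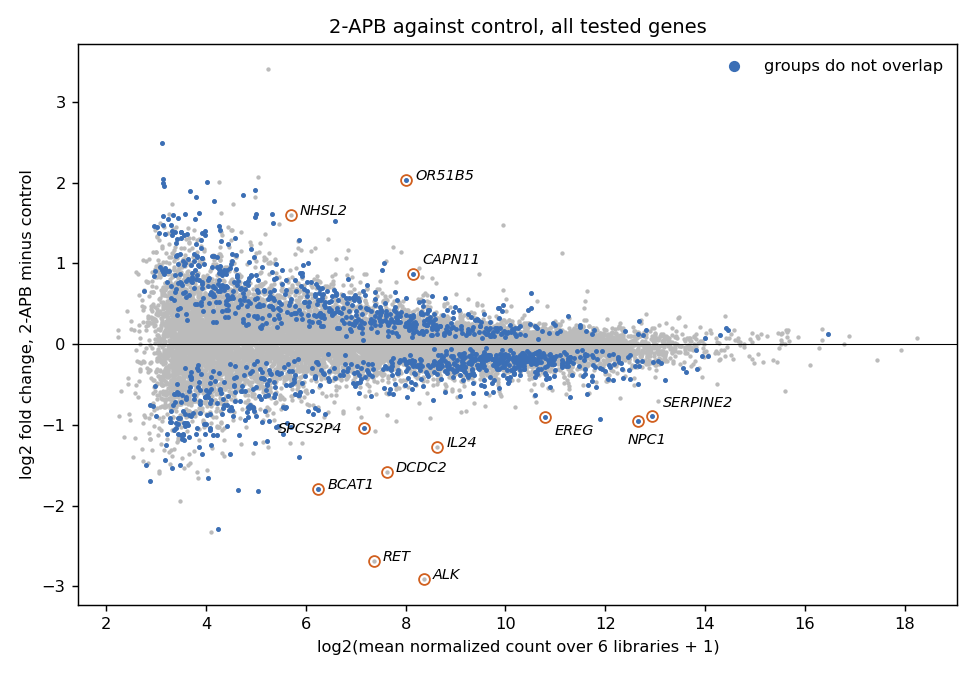
Each point is 1 of 17492 tested genes, placed by the log2 of its mean normalized count plus 1 over the 6 libraries and by its log2 fold change, 2-APB minus control. Blue marks the 1325 genes whose groups do not overlap, and orange rings mark genes described in the text. The blue band narrows toward high levels, and ALK and RET, far below 0, are grey because their groups overlap, while OR51B5, far above 0, is blue.

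The largest fold changes were a different set of genes, and most of them depended on 1 control library. Of 33 genes with a mean of at least 50 and a log2 fold change of at least 1 in either direction, 21 higher and 12 lower, 9 had groups that did not overlap. Leaving out control 2 brought 21 of the 33 under 50% of their log2 fold change, and leaving out control 3 did so for 7. For the other 5, at least 50% of the log2 fold change remained whichever library was left out. They were BCAT1, AGAP2, SPCS2P4 and 2 loci without a symbol. AGAP2, a gene of the Arf GTPase-activating family picked after its values were seen, was at 58.9, 22.3 and 53.2 in control and 85.5, 88.5 and 78.9 with 2-APB.

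ALK, a receptor tyrosine kinase gene, stood at 8.42, 14.2 and 1929 in control 1 to 3 and at 3.29, 12.9 and 9.86 with 2-APB, so its log2 fold change of -2.91 (SE 1.60) became -0.47 without control 3. RET, another receptor tyrosine kinase gene, was at 8.42, 15.2 and 938 against 8.77, 5.15 and 7.89 (-2.69, and -0.61 without control 3). IL24, a cytokine gene, was at 198, 100 and 1677 against 121, 129 and 150 (-1.28, and -0.089 without control 3). In these 3 genes control 3 alone was high within the 6 libraries, and IL24 was also high, at 488 to 1603, in the SKF-96365 libraries.

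Control 2 differed from the other controls in other genes. DCDC2, a microtubule-binding protein gene, was at 103, 783 and 88.7 in control and 89.9, 52.4 and 55.2 with 2-APB (log2 fold change -1.58, and -0.58 without control 2). BCAT1, the cytosolic branched-chain aminotransferase gene, was at 45.2, 288 and 44.9 against 19.7, 25.8 and 25.6 (-1.79, and -0.91 without control 2). BCAT1 is thus lower with 2-APB than in every control, but its size rests on control 2. The remaining genes were low in control 2 alone. OR51B5, an olfactory receptor gene, was at 266, 8.11 and 236 in control and 373, 374 and 279 with 2-APB (2.03, and 0.43 without control 2). NHSL2 was at 60.0, 1.01 and 64.7 against 64.7, 62.7 and 53.2 (1.60, and -0.053 without control 2). DCHS1, a protocadherin gene, was at 88.4, 5.07 and 124 against 99.8, 97.0 and 103, and FAM184A at 65.2, 6.09 and 56.4 against 68.0, 77.3 and 72.0. Without control 2 these 2 genes were at -0.070 and 0.25.

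**Figure D3:**
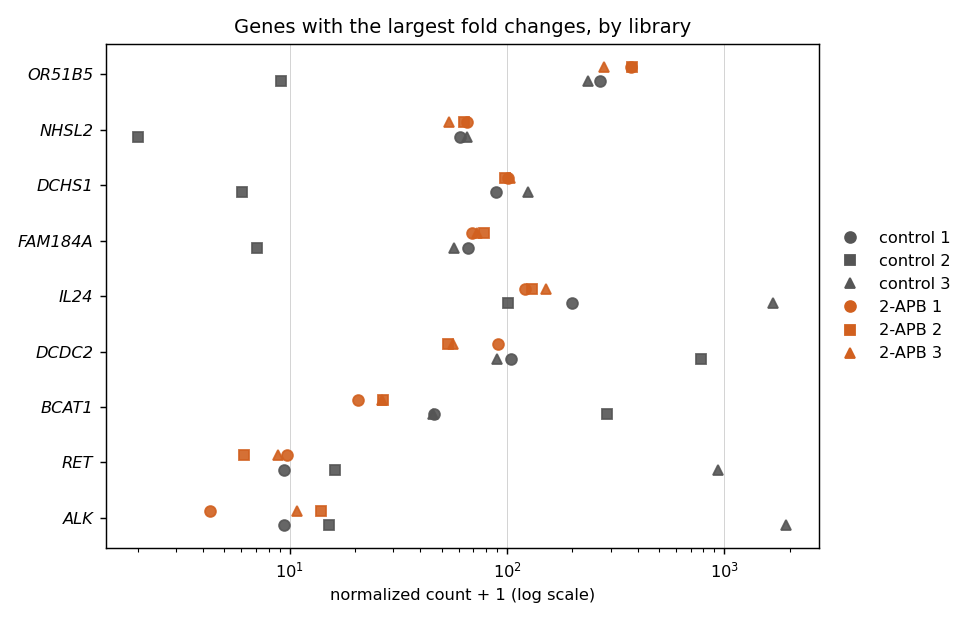
Normalized count plus 1 on a log axis for the 9 genes with a symbol among the 6 lowest and 6 highest log2 fold changes at a mean of at least 50; grey is control, orange is 2-APB and the shape is the library number. Control 3 (grey triangle) stands alone on the right in ALK, RET and IL24, and control 2 (grey square) stands alone in DCDC2, BCAT1, OR51B5, NHSL2, DCHS1 and FAM184A.

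Genes for the channels on which 2-APB is known to act were expressed, and TRPV2 itself did not separate the groups. TRPV2 stood at 112, 51.7 and 191 in control and 95.4, 102 and 137 with 2-APB, so all 3 treated libraries lie inside the control range. Its log2 fold change was 0.090 (SE 0.38, 95% interval from limma -0.76 to 0.94), and the exact two-sided permutation test gave p = 1, where this design can give 0.1 at the smallest. The direction was not stable: it was -0.40 without control 2, 0.53 without control 3 and -0.078 in DESeq2. TRPV1, the capsaicin receptor gene, was nearly level at 133, 139 and 140 against 143, 141 and 143 (0.051, SE 0.15). TRPV3 and TRPV4 were at most 6.01 and 7.67 in any of the 6 libraries and were not tested. Of the 6 TRPV genes 2 were tested, and 1 of them, TRPV1, did not overlap between groups, beside 7.57% of all tested genes.

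Of 14 other TRP genes 8 were tested, 5 with a log2 fold change below 0, and the median was -0.048, beside -0.0016 over all genes. Without control 3 the median was 0.19 with 6 of 8 above 0, and without 2-APB 3 it was 0.11 with 5 of 8 above 0. TRPM2, a calcium-permeable channel opened by ADP-ribose, was at 50.5, 54.8 and 45.9 in control and 26.3, 28.3 and 12.8 with 2-APB (log2 fold change -1.20, SE 0.35). No 2-APB library reached the lowest control, but the gene sits near the low end of the levels tested and was picked after its values were seen. TRPM7 was at 2346, 2358 and 2985 against 2613, 2764 and 2223 (-0.014, SE 0.15). Its groups overlap throughout. MCOLN3, a channel of endosomes and lysosomes, had the highest log2 fold change of the list with a mean of at least 50 (0.40, SE 0.36), and PKD2, which encodes polycystin-2, had the lowest (-0.17, SE 0.29).

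All 12 genes of store-operated entry and the IP3 receptors were tested, 5 above and 7 below 0, with a median of -0.013 that was 0.019 without 2-APB 3. ITPR3, a receptor that releases calcium from the endoplasmic reticulum, was the lowest. It stood at 5353, 6002 and 6805 in control and 4001, 4069 and 5904 with 2-APB (log2 fold change -0.40, SE 0.16). 2-APB 3 lies between control 1 and control 2 in this gene, while 2-APB 1 and 2 are under every control. STIM1 was at 1091, 1437 and 1366 against 1042, 1046 and 912 (-0.37, SE 0.19). It is the 1 gene of the 12 whose groups did not overlap, beside 7.57% of all tested genes. The other IP3 receptor genes, ITPR1 and ITPR2, stood at -0.15 (SE 0.17) and 0.031 (SE 0.12) on the log2 scale. The pore genes ORAI1, ORAI2 and ORAI3 were at -0.17 (SE 0.18), 0.095 (SE 0.11) and 0.19 (SE 0.50), and CRACR2A, a regulator of ORAI channels, was the highest at 0.24 (SE 0.20). Connexins form gap junctions that 2-APB also blocks. Among their genes, GJC1 was at 5485, 5332 and 8257 against 4936, 5080 and 4975 (-0.32, SE 0.22, and -0.11 without control 3). GJA1 ranged from 9.47 to 179 within control and from 9.86 to 74.7 with 2-APB, and its direction changed with the library left out, from -0.81 without control 1 to 1.24 without control 3. Calcium pumps, exchangers and mitochondrial uptake genes were below 0 in 9 of 13 with a median of -0.098 (-0.019 without 2-APB 3), and the groups stood apart in 0 of the 13.

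**Figure D4:**
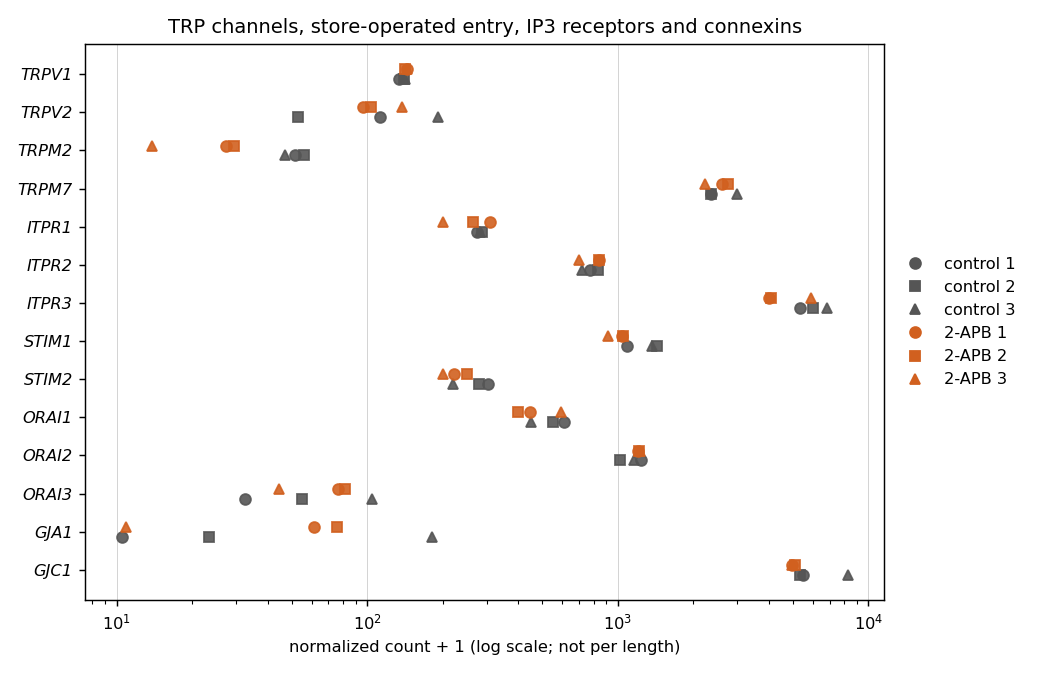
Normalized count plus 1 on a log axis for 14 channel, IP3 receptor, STIM, ORAI and connexin genes; grey is control, orange is 2-APB and the shape is the library number. Values are not per length and so are compared within a row only. TRPM2, STIM1 and GJC1 have all orange points left of the grey ones and TRPV1 has them to the right by a small margin, while TRPV2 and GJA1 spread most within control.

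Gene groups were described by counts and medians over their tested members, beside 50.3% of all genes below 0 and 3.97% (lower) or 3.61% (higher) with groups apart. Of 30 groups with at least 5 tested members, 23 had a median below 0 and 7 above, from -0.38 to 0.22. In 13 groups the sign of the median was kept whichever single library was left out, 10 below and 3 above 0, and in 10 groups it turned without control 3. No member of any group was called by limma.

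**Figure D5:**
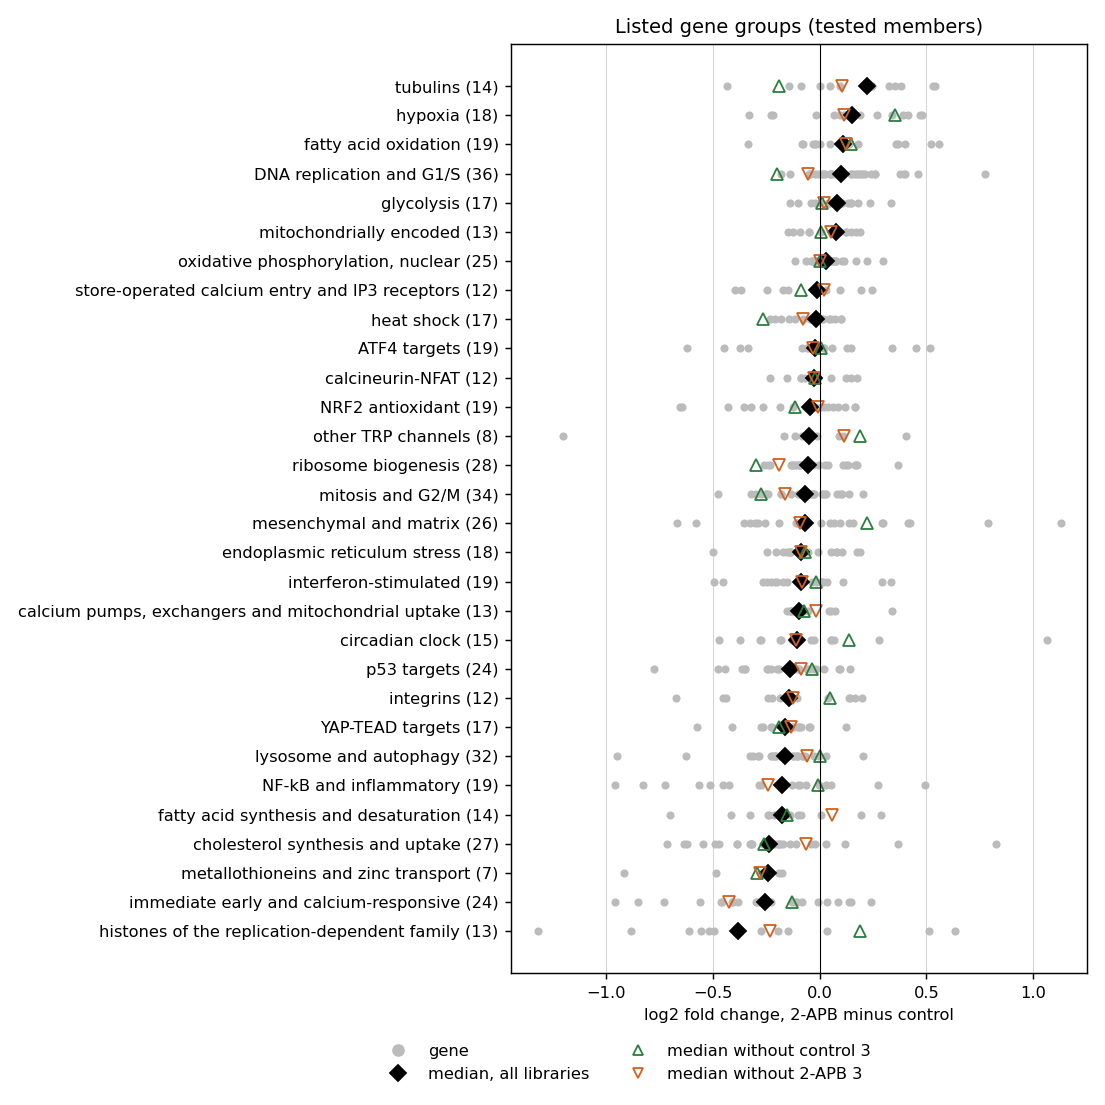
Log2 fold changes (2-APB minus control) of the tested members of 30 gene groups, with the number of members in brackets; small grey points are genes and black diamonds the medians. Open triangles give the median without control 3 (green, pointing up) and without 2-APB 3 (orange, pointing down). For metallothioneins the 3 medians lie together at -0.30 to -0.24, while for replication-dependent histones, tubulins and DNA replication genes the green triangle lies on the other side of 0.

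Metallothioneins bind zinc and copper in the cytosol, and MTF1, the zinc-sensing transcription factor, drives their genes through metal response elements in their promoters. Of 13 listed metallothionein and zinc transport genes 7 were tested, and all 7 had log2 fold changes below 0 (median -0.24), with groups apart in 3. The count was 7 of 7 without control 3, 7 of 7 without 2-APB 3 and 6 of 7 without control 1. MT1E was at 1566, 1403 and 1306 in control and 1123, 1222 and 1262 with 2-APB (-0.24, SE 0.11). SLC30A1, the zinc exporter of the plasma membrane, was at 870, 1215 and 855 against 791, 842 and 494 (-0.49, SE 0.29), with 2-APB 3 far below the others. MT1F was at 9.47, 9.13 and 23.0 against 8.77, 6.87 and 3.94, close to the filter. MT2A, the most abundant, was at 7782, 6002 and 6946 against 4511, 5411 and 7462 (-0.28, SE 0.19), and 2-APB 3 lies inside its control range. Metallothionein genes are near-identical copies, and how the counting divided shared reads among them is not given in the sources used here. The mean log2 level of the 7 genes, centred on the 6 libraries, was 0.19, 0.079 and 0.27 in control 1 to 3 and -0.22, -0.13 and -0.19 in 2-APB 1 to 3.

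RefSeq promoters on GRCh38.p14 were listed for 5 of the 7 tested genes, and 3 of them held a metal response element core, TGCACNC or TGCGCNC on either strand, in the 250 bases before the start. Over all 35116 promoters, 24.8% held one. The 3 are printed 5′ to 3′ on the gene's strand to show how the number of cores differs among the 3 genes; capitals mark the cores. MT2A (chr16:56608334-56608583, plus strand) holds 7, MT1X (chr16:56682220-56682469, plus strand) 4 and SLC30A1 (chr1:211579162-211579411, minus strand) 1, with no overlap between matches. The match is to letters alone, and these data do not measure binding.
MT2A: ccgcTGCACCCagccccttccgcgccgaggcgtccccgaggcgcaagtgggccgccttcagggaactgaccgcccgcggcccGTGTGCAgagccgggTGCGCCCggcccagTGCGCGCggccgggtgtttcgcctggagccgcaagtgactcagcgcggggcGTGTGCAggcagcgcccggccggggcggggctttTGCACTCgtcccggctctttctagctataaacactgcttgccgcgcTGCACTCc
MT1X: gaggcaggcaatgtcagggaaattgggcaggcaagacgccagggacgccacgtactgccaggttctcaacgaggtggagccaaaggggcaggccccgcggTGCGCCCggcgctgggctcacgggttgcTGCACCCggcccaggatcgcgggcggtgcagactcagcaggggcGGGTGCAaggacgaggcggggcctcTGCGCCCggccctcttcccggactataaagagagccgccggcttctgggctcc
SLC30A1: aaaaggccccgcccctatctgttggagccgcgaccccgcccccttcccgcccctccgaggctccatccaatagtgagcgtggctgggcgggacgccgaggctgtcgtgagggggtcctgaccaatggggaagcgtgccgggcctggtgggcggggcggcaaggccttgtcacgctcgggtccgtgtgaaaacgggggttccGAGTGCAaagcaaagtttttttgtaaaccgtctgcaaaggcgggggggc

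Immediate early and calcium-responsive genes, which calcium and growth factor signals induce within minutes, were below 0 in 19 of 24 (median -0.25), with groups apart in 2, both lower. The count was 16 of 24 without control 3 (median -0.13) and 22 of 24 without 2-APB 3 (median -0.42). SPRY2, a feedback inhibitor of receptor tyrosine kinase signalling, was at 430, 394 and 507 in control and 360, 365 and 353 with 2-APB (log2 fold change -0.30, SE 0.13). Its 2-APB values are nearly equal and all under control. The second gene, the nuclear receptor NR4A3, was at 10.1 to 14.7 against 4.29 to 7.67, near the filter. DUSP5, a nuclear phosphatase of ERK, had the lowest log2 fold change with a mean of at least 50, at 623, 442 and 1510 against 408, 368 and 607 (-0.73, SE 0.40; -0.22 without control 3). The paralog gene NR4A1 had the highest (0.14, SE 0.32). Genes of calcineurin-NFAT signalling were closer to 0, with 8 of 12 below 0, a median of -0.024 and members from NFATC3 (-0.23, SE 0.16) to NFATC1 (0.17, SE 0.17).

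NF-kB and inflammatory genes were below 0 in 15 of 19 (median -0.17; -0.0086 and 10 of 19 without control 3). Groups were apart in 2, CCL2, a chemokine that draws monocytes, at 367, 314 and 294 in control and 292, 258 and 254 with 2-APB, and LIF, a cytokine of the IL-6 family, at 954, 1123 and 1699 against 881, 850 and 947. IL6 was at 635, 604 and 656 against 355, 352 and 620 (log2 fold change -0.56, SE 0.21). In IL6, 2-APB 1 and 2 lie far under the controls and 2-APB 3 lies among them. CXCL2, a neutrophil chemokine, was at 307, 92.3 and 475 against 74.5, 80.7 and 302 (-0.96, SE 0.61), and IL1B at 538, 34.5 and 841 against 226, 278 and 709 (0.49, SE 0.96). For both, control 2 was the lowest control and 2-APB 3 the highest treated library. Interferon-stimulated genes were below 0 in 12 of 19 (median -0.087; -0.35 without control 1 and -0.015 without control 3), from IFIT3 (-0.49, SE 0.28) to BST2 (0.33, SE 0.24).

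Among p53 targets, which respond to DNA damage and other stress, 20 of 24 were below 0 (median -0.14), with groups apart in 2. PHLDA3, an inhibitor of AKT, was at 910, 1029 and 1078 in control and 799, 681 and 735 with 2-APB (log2 fold change -0.44, SE 0.14). PLK2, a kinase, was at 12471, 13394 and 16504 against 11480, 11754 and 9850 (-0.35, SE 0.21). Without control 3 the list stood at 14 of 24 below 0 with a median of -0.037. GDF15 went from -0.77 (SE 0.90) to 0.49 in that fit; control 3 held 4830 and the other 5 libraries 298 to 558. Of endoplasmic reticulum stress genes 12 of 18 were below 0, and groups were apart in 4. HERPUD1, of the degradation machinery (1003, 1098 and 1046 against 1183, 1201 and 1205), and the chaperone genes HSP90B1 and CALR were higher in every 2-APB library, while the cochaperone gene DNAJB9 was lower (-0.50, SE 0.30; -0.29 without control 3). Control 1 and 2-APB 1 were both at 262 for DNAJB9, so its groups are apart by less than 1 read. HERPUD1 had a log2 fold change of 0.19 (SE 0.10), HSP90B1 of 0.17 (SE 0.11) and CALR of 0.080 (SE 0.10).

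ATF4 targets, heat shock and NRF2 antioxidant genes had medians between -0.046 and -0.016, each with a sign that turned when some library was left out. Extremes with a mean of at least 50 were the asparagine synthetase gene ASNS (0.51, SE 0.54) and CEBPB (-0.62, SE 0.39), the cochaperone gene BAG3 (0.10, SE 0.19) and the chaperonin gene HSPE1 (-0.23, SE 0.28), and PIR (0.17, SE 0.17) and HMOX1 (-0.65, SE 0.35). HMOX1, heme oxygenase, was at 1929, 2197 and 5468 in control and 1822, 1769 and 1845 with 2-APB. Every 2-APB library lay lower, and without control 3 the value was -0.18.

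Hypoxia genes lay on the higher side, 14 of 18 above 0 (median 0.15), with 14 of 18 without control 3 (median 0.35), 12 of 18 without 2-APB 3 (median 0.11) and 11 of 18 without control 2 (median 0.082). Groups were apart in 3, all higher with 2-APB. PDK1, a pyruvate dehydrogenase kinase gene, was at 877, 839 and 728 in control and 931, 996 and 1573 with 2-APB. Its log2 fold change was 0.48 (SE 0.27), and 0.25 without 2-APB 3, which stood well above the rest. P4HA1, a collagen hydroxylase, was at 640, 783 and 833 against 877, 916 and 910 (0.27, SE 0.12), and the histone demethylase KDM3A at 913, 882 and 960 against 1023, 976 and 996 (0.12, SE 0.11). PFKFB3, a regulator of glycolysis, had the lowest value with a mean of at least 50 (-0.33, SE 0.24). The glycolysis list was above 0 in 13 of 17, with a median of 0.082 that was 0.013 without control 3.

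Fatty acid oxidation genes were above 0 in 13 of 19 (median 0.11), in 17 of 19 without control 3 (median 0.14) and in 10 of 19 without control 2 (median 0.012). Groups were apart in 3, all higher: CPT2, which releases fatty acids from carnitine in the mitochondrion, at 154, 186 and 110 in control and 201, 191 and 189 with 2-APB, the dehydrogenase gene ACADS at 28.4 to 40.7 against 48.1 to 53.2, and the electron transfer gene ETFB at 102 to 119 against 121 to 173. ACACB, the mitochondrial acetyl-CoA carboxylase whose product inhibits fatty acid import, was at 302, 297 and 287 against 368, 342 and 371 (log2 fold change 0.29, SE 0.12). It belongs to the fatty acid synthesis list, where 11 of 14 members were below 0 (median -0.18), and 4 of 14 without 2-APB 3 (median 0.060). SCD, the stearoyl-CoA desaturase, differed most in that library: it was at 4028, 10041 and 17536 in control and 8663, 8747 and 2175 with 2-APB.

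Cholesterol synthesis and uptake genes, which SREBP2 induces when sterols are low, were below 0 in 23 of 27 (median -0.24), in 16 of 27 without 2-APB 3 (median -0.064) and in 20 of 27 without control 2 (median -0.12). INSIG1, a sterol-sensing brake on SREBP processing, was at 926, 1869 and 3091 in control and 1537, 1481 and 530.5 with 2-APB. The lowest library for INSIG1 was 2-APB 3 and the next was control 1. Groups were apart in 2, the demethylase gene CYP51A1, at 203, 263 and 200 against 167, 185 and 111, and SCAP, the escort of SREBP, at 1667, 1676 and 1745 against 1509, 1571 and 1378. Of 20 tested members with a listed promoter, 1, SREBF2, matched the letter pattern searched for as a sterol regulatory element. Of all promoters, 0.883% matched it. The match is to letters alone, so promoters without it were not shown to lack such an element.

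Lysosome and autophagy genes were below 0 in 30 of 32 (median -0.16), but in 16 of 32 without control 3 (median 0.0021). Groups were apart in 4, all lower with 2-APB. CTSL, a lysosomal protease, was at 3788, 2832 and 5014 in control and 2336, 2364 and 2663 with 2-APB (log2 fold change -0.62, SE 0.21). NPC1, which exports cholesterol from lysosomes, was at 4601, 9114 and 12492 against 4300, 4362 and 3886 (-0.95, SE 0.39; -0.63 without control 3). Control 1 lies close to the 2-APB libraries in NPC1. The others were the galactosidase gene GLA (-0.18, SE 0.11) and FNIP2 (-0.32, SE 0.18). TFEB, the transcription factor of the lysosomal network, had the highest value (0.20, SE 0.31). The E-box core CACGTG, which TFEB binds within a longer motif, was found in 8 of 21 members with a listed promoter and in 6.34% of all promoters.

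Growth genes depended on which library was left out. DNA replication and G1/S genes were above 0 in 30 of 36 (median 0.10) with all libraries. The count was 5 of 36 without control 3 (median -0.20) and 14 of 36 without 2-APB 3 (median -0.056). Their mean log2 level, centred on the 6 libraries, was 0.43, 0.12 and -0.77 in control 1 to 3 and -0.10, -0.10 and 0.41 in 2-APB 1 to 3. Each group thus holds high and low libraries. Tubulin genes went from a median of 0.22 to -0.19 without control 3. TUBA1A, an alpha-tubulin gene, was at 1410, 1618 and 920 in control and 1961, 2046 and 1586 with 2-APB (log2 fold change 0.53, SE 0.22). Replication-dependent histone genes went from -0.38 to 0.19, with H2BC21 at 91.5, 69.0 and 744 in control and 115, 104 and 62.1 with 2-APB. Mitosis genes were below 0 in 25 of 34 (median -0.067; 9 of 34 without control 2 and 32 of 34 without control 3), and ran, at a mean of at least 50, from PRC1 (-0.32, SE 0.24) to CDC25C (0.20, SE 0.15). Ribosome biogenesis genes were below 0 in 19 of 28 (median -0.055; 4 of 28 without control 1 and 24 of 28 without control 3). In 0 members of the replication, mitosis, tubulin and ribosome biogenesis lists did the groups stand apart.

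YAP-TEAD target genes, which report cell spreading and tension, were below 0 in 16 of 17 (median -0.16), in 14 of 17 without control 3 and in 11 of 17 without control 2. ANKRD1 was at 2344, 1684 and 3057 in control and 1344, 1350 and 2020 with 2-APB (log2 fold change -0.57, SE 0.27). The 2-APB 3 value lies above control 2. NUAK2, a kinase, was the 1 member with groups apart, at 624, 701 and 660 against 569, 557 and 564 (-0.23, SE 0.16). Mesenchymal and matrix genes were 12 above and 14 below 0 (median -0.069), but 19 above and 7 below without control 3 (median 0.22) and 5 above and 21 below without control 2 (median -0.14), with extremes, at a mean of at least 50, at COL1A1 (0.79, SE 0.46) and FN1 (-0.67, SE 0.56). TWIST1, a transcription factor of mesenchymal cells, was the member with groups apart, at 120, 161 and 136 against 107, 107 and 108. Integrin and circadian clock genes had medians of -0.14 and -0.11 that were 0.047 and 0.14 without control 3. Mitochondrially encoded genes and nuclear genes of oxidative phosphorylation stayed near 0, with medians of 0.075 and 0.027 that were -0.0029 and -0.012 without control 2.

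Markers of cell identity were read in the same 6 libraries. Of 16 hepatocyte secretory genes, 14 stayed under 10 in all 6 libraries, among them AFP, APOA1, TTR and APOB, and ALB reached 11.8 at most. SERPINA1, the 1 tested member, was at 207, 523 and 378 in control and 255, 260 and 311 with 2-APB. The transcription factor gene HNF4A, which defines hepatocytes, also stayed under 10, while NR2F2 was at 1799 to 3116. Of 18 hepatocyte transcription factor genes 10 were tested and 6, HNF4A among them, stayed under 10 in all 6 libraries; the list summed to 3153 to 4505 in control and 3519 to 4428 with 2-APB. The secretory markers that define the labelled cell type, other than SERPINA1, were thus absent or near 0 in both groups. These markers do not bear out the HepG2 label, and the identity of the cells was not tested. Leukocyte markers PTPRC, CD68, CD163, LYZ and CD3E stayed under 10, and the 8 listed genes summed to 61.0 to 203 in control and 81.8 to 110 with 2-APB. CD14 and ITGAM, the 2 tested ones, were at 35.5 to 53.8 and 5.07 to 18.9 in control and at 47.3 to 81.6 and 18.9 to 29.6 with 2-APB (log2 fold changes 0.66 and 1.11). Of 7 endothelial genes 1 was tested, and the list summed to 16.8 to 177 in control and 14.6 to 32.5 with 2-APB. The 8 stellate and fibroblast genes summed to 729 to 1389 and 700 to 1469. In bulk RNA, fewer cells of a type and less RNA per cell cannot be told apart, and the part of any of these markers in the results was not tested.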

How the data were processed

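RNA was sequenced from 9 libraries made from total RNA with a SMARTer kit, per the labels' protocols. The authors made the deposited signal values, which are gene counts divided by 1 size factor per library, with DESeq2 (version not given), per the submitters' processing notes. Aligner, counter, build, annotation and strand setting are not given in the sources used here. In 8 libraries, all 6 used here among them, 100% of deposited values were whole multiples of what 1 read is worth, within 0.001, so reads were recovered. Symbols were matched by Ensembl identifier for 60587 of 61093 rows (99.2%), 124 of them from GENCODE 29.

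limma 3.58.1 in R 4.3.3 was run across all genes, with an intensity trend, on log2(normalized count + 1), with 3 groups of 3, no covariate, a two-sided contrast and Benjamini-Hochberg adjustment over 17492 genes. Fold changes are on that scale, which understates changes of low genes. edgeR 4.0.16 (quasi-likelihood) and DESeq2 1.42.0 were run on recovered reads of the 6 libraries. PCR reads carry no molecular identifiers, so counts give counting error only.

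Named genes were TRPV2 and others picked by rule among genes with a mean of at least 50. The rules took the 12 per direction with non-overlapping groups and the smallest p, and the 6 highest and 6 lowest log2 fold changes. They also took the highest and lowest member of each list. Other members were chosen after their values were seen. The values of 1 gene of that set are not reported here. The comparison, lists and rules were chosen with earlier results of these data known. Promoters come from RefSeq. Alternatives covered pseudocounts (0.5 and 5), filters, scalings, the variance trend, the 6 libraries alone, the replicate number as a block and left-out libraries.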

Additional observations from a re-analysis of the deposited data

How the results depend on the processing

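With 20 alternatives run, 0 genes were called in each, and the smallest adjusted p over all of them was 0.0761. Genes at an unadjusted p under 0.05 in limma were 295 of 12381 tested with a mean of at least 50 over all 9 libraries. Without a filter they were 1337 of 38944. With 2-APB 1 and 2 averaged into 1 sample, an alternative chosen after seeing the data, they were 215 of 17492. Leaving libraries out gave 241 to 2183. Genes whose groups did not overlap numbered 861 of 12381 with that mean over the 9 libraries. By the mean over the 6 compared, 360 were higher and 503 lower. They numbered 2391 of 38944 without a filter, and 2022 to 9834 with libraries left out, where fewer libraries separate more easily. Apart from the numbers of genes and libraries entered, why these counts moved was not tested. Of 600 comparisons of list medians, 31 moved by more than the spread between libraries. The median of all genes was 0.038 after upper-quartile rescaling, 0.0083 after quantile normalization and 0.0020 with TMM factors.

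Of 2000 comparisons over 100 named genes, 1941 kept the direction and 59, in 28 genes, reversed. TRPV2 was -0.078 in DESeq2, -0.083 in edgeR and -0.0021 after quantile normalization. GJA1 was -0.54 in DESeq2, -0.55 in edgeR, -0.015 after quantile normalization and -0.37 with 2-APB 1 and 2 averaged. In DESeq2 and edgeR, IL1B was -0.22 and -0.22, DBP was -0.046 and -0.054, and PDGFRB was 0.012 and 0.0077. The cause was not tested. With libraries left out, log2 fold changes ran as follows. The range was TRPV2 from -0.40 to 0.53, ACADVL from -0.18 to 0.015, ALDOA from -0.13 to 0.63, AMOTL1 from -0.031 to 0.25 and ASNS from -0.10 to 1.40. It ran for ATP2B1 from -0.28 to 0.091, BAG3 from -0.085 to 0.21, CCNE2 from -0.39 to 1.41, CRACR2A from -0.049 to 0.41 and DBP from -0.17 to 1.25. The range was DCHS1 from -0.070 to 2.11, FBL from -0.021 to 0.37, GDF15 from -1.51 to 0.65, GJA1 from -0.81 to 2.12 and H2BC21 from -1.52 to 0.46. It ran for IL1B from -0.92 to 1.36, INSIG1 from -1.17 to 0.20, ITGB3 from -0.93 to 0.25, KRT18 from -0.018 to 0.25 and KRT7 from -0.18 to 0.070. The range was NHSL2 from -0.053 to 2.54, NR1D1 from -0.80 to 0.14, NR2F2 from -0.080 to 0.32, NR4A1 from -0.22 to 0.40 and PDGFRB from -0.32 to 0.49. It ran for PKD2 from -0.34 to 0.20, SCD from -1.27 to 0.45, TFEB from -0.018 to 0.67 and TUBB3 from -0.38 to 0.30. 

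The replicate numbers did not pair the samples: deviations of same-numbered control and 2-APB libraries correlated at -0.22, -0.028 and -0.27. With the replicate number as a block, 431 genes were at an unadjusted p under 0.05 and 0 were called, and the block changed no other call.

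With 3 libraries a group, the unadjusted median half-width of 0.51 log2 units limits what could be seen, and low genes are the least certain. Depth was 14786059 to 19008238 reads. 2-APB 1 and 2 differed by little more than counting error, and whether they are independent was not tested.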
